A study of Homo sapiens with 6 samples.

Results

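The HOX cluster genes were followed through RIP-seq and acRIP-seq libraries of 2 colorectal cancer (CRC) cell lines. Members were the protein-coding genes of the deposited RIP expression table whose symbol is HOXA, HOXB, HOXC or HOXD followed by a number. This gave 39 genes among 19847 protein-coding genes and 58302 genes in all, of which 11 lie in the HOXA, 10 in the HOXB, 9 in the HOXC and 9 in the HOXD cluster. To find the transcripts bound by the acetyltransferase NAT10 and those carrying N4-acetylcytidine (ac4C), the study sequenced Input RNA, RNA immunoprecipitated with an antibody against NAT10 (RIP) and fragmented RNA immunoprecipitated with an antibody against ac4C (acRIP). Each was made once in SW480 and once in DLD-1, CRC lines whose cells carry the labels epithelial, wild-type and untreated. The paper describes both lines as p53 mutants, so the label wild-type cannot refer to that gene. With each library type made once per line, there were 6 groups of 1 library and no replicates. Differences therefore compare libraries, no p-value was computed, and intervals cover counting error only.

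HOX genes encode homeodomain transcription factors that give cells a position along the body axis. They lie in 4 clusters, and their order on the chromosome follows the order in which they are used from head to tail, with the highest paralog numbers used most posteriorly. Colonic epithelium keeps a HOX code from the embryonic hindgut, and colorectal tumours and their cell lines often alter it. Libraries of the same line are therefore read here by which HOX genes they hold and at what level.

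The HOXB, HOXC and HOXD clusters lie at chr17:48528526-48728750, chr12:53938831-54056030 and chr2:176087487-176190907, and the HOXA cluster on chr7, by the RefSeq spans of their members on GRCh38. Of the 39 members, 20 had an entry in the RefSeq promoter table (GRCh38.p14). Their 250 bases upstream of the gene start held a median of 20.5 CG dinucleotides, with a range of 4 to 40, against a median of 11 over 35116 promoters. The GC content was alike, with medians of 59% and 58%. Both sequences below are shown because of their genes' ratios of Input SW480 to Input DLD-1 in the RIP table. These were the highest and the lowest among the members with such an entry that passed the expression filter. Capitals mark CG dinucleotides, and each sequence ends at the base before the gene start.
HOXA13, chr7:27200092-27200341, minus strand: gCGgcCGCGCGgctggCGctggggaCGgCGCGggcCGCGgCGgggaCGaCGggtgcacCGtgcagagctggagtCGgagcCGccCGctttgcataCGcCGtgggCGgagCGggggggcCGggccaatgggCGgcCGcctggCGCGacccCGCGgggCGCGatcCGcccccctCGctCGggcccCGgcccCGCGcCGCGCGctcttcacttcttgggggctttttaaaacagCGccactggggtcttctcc
HOXD8, chr2:176129455-176129704, plus strand: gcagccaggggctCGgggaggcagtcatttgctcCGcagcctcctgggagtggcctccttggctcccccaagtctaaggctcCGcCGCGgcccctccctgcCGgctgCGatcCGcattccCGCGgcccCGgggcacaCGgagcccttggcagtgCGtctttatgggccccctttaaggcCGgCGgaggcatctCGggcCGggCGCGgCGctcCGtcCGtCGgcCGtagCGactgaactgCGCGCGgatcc
The HOXA13 stretch holds 40 CG dinucleotides at a GC content of 78%, and the HOXD8 stretch 28 at 72.4%. Both genes thus start in CG-rich sequence, although each was well expressed in only some of the libraries.

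Expression is given as FPKM (fragments per kilobase of transcript, scaled to the mapped fragments of the library), which can be compared between genes because it is per length. The FPKM steps kept whole reads, which summed to between 11496988 and 26619222 per library in the RIP table, with both RIP libraries deeper than both Inputs. A second measurement of each Input stands in the acRIP table, whose depth is unknown. As a check of the labelled cell type, all 10 epithelial markers were above 0 in Input SW480 and 9 of 10 in Input DLD-1, and their summed level lay between 1400 and 3373 FPKM over the RIP-table libraries. Most of this sum came from KRT8, KRT18 and KRT19. VIL1 lay only between 0.261 and 1.24 FPKM and LGALS4 between 0.936 and 4.78. CDX1 was at 0.623 FPKM in Input SW480 and listed at 0 in the other RIP-table libraries. Summed fibroblast markers were between 0.401 and 2.21 FPKM, leukocyte markers between 0.536 and 1.88, and endothelial markers between 0.157 and 0.808. COL3A1 and CD3E, which define fibroblasts and T cells, were listed at 0 in all 4 libraries. Most of the fibroblast sum came from PDGFRB, at 0.375 to 2.02 FPKM, and most of the leukocyte sum from CD79A, at 0.536 to 1.88. KRT20, an intestinal keratin, was at 29.2 FPKM in Input SW480 and 23.9 in RIP DLD-1, but at 0.0426 in Input DLD-1 and listed at 0 in RIP SW480.

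As KRT20 shows, the RIP libraries go against their labels. The RIP library labelled SW480 resembled Input DLD-1, and the RIP library labelled DLD-1 resembled Input SW480. Whether samples were exchanged was not tested, the labels were kept throughout, and each ratio of RIP to Input below is formed with both Inputs, first the one with the same label and then the opposite one. This pattern was known over all genes when the HOX genes were chosen, so what they show of it is a description and no independent evidence.

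The HOX code was led by HOXB9, which had the highest level of the 39 genes in every library. Its FPKM was 212 in Input SW480 and 61.5 in Input DLD-1, and 63.8 and 204 in RIP SW480 and RIP DLD-1. In the acRIP table it was 177 in Input SW480 and 35.9 in Input DLD-1. HOXB9 (ENSG00000170689) is a posterior member that is often raised in tumours, and both high libraries of the RIP table, Input SW480 and RIP DLD-1, carry different labels. Summed over all 39 genes, HOX expression was 514 FPKM in Input SW480, 211 in Input DLD-1, 214 in RIP SW480 and 527 in RIP DLD-1. The HOXB cluster took 83.5% and 70.3% of this sum in the Inputs and the HOXA cluster 15.9% and 16.1%. HOXC and HOXD together were the minor clusters, yet they separated the lines most clearly. HOXC took 0.518% in Input SW480 against 8.01% in Input DLD-1, and HOXD 0.097% against 5.51%. In RIP SW480 the HOXC and HOXD shares were 6.4% and 5.36%, and in RIP DLD-1 they were 0.369% and 0.188%.

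**Figure D1:**
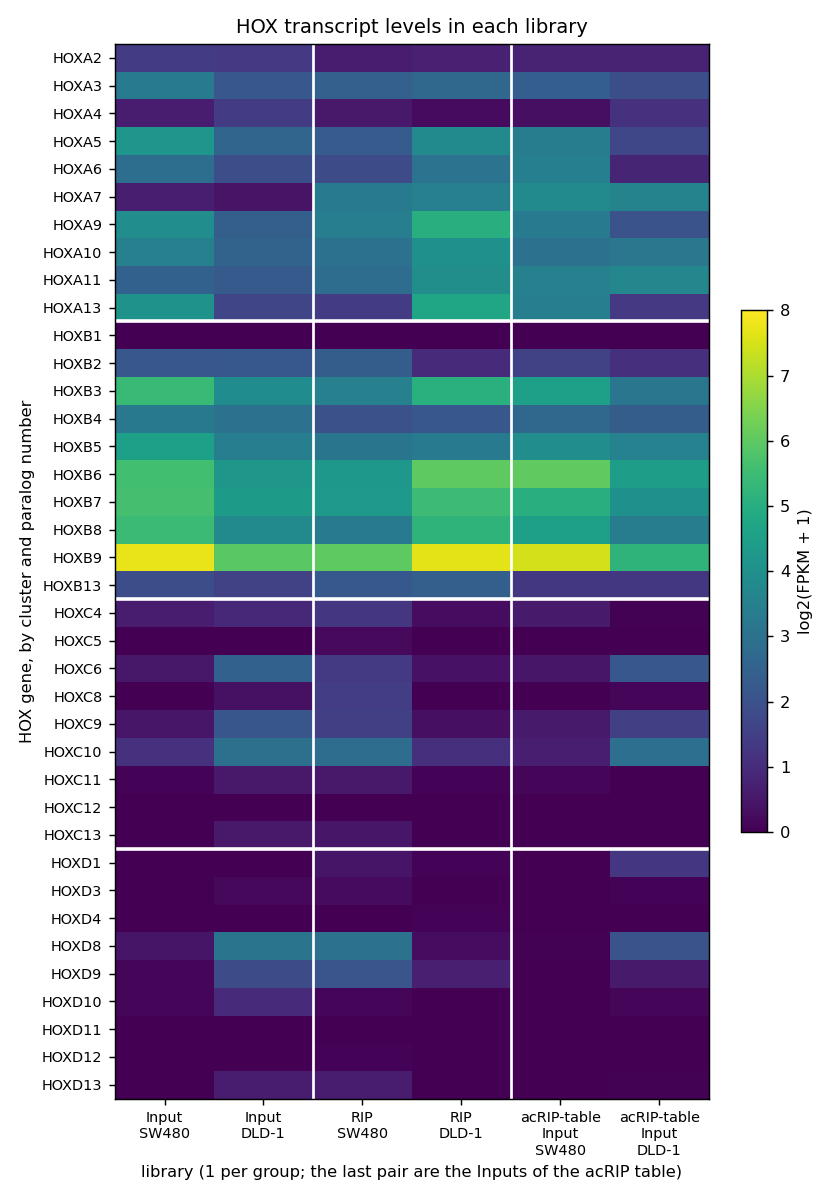
Level of each HOX gene reported by name (rows, by cluster and paralog number) in each library (columns), as log2(FPKM + 1) on the colour scale. The HOXB block is brightest in Input SW480 and RIP DLD-1, and HOXC and HOXD genes are lit in Input DLD-1 and RIP SW480, where HOXD8 reached 7.42 and 6.94 FPKM.

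A filter on low values kept genes with a mean of at least 1 FPKM over the 4 RIP-table libraries. It was passed by 24 members (10 HOXA, 9 HOXB, 3 HOXC and 2 HOXD) and by 11605 protein-coding genes. Just inside it lay HOXA2 with a mean of 1.09 and HOXC9 with 1.48, and just outside it HOXC4 with 0.764 and HOXA4 with 0.701. The other members below it were HOXB1, HOXC5, HOXC8, HOXC11, HOXC12, HOXC13, HOXD1, HOXD3, HOXD4, HOXD10, HOXD11, HOXD12 and HOXD13. Their values in the RIP table lay between 0 and 1.73, the highest being HOXC8 in RIP SW480. HOXB1, the hindbrain gene at the anterior end of its cluster, and HOXD11 were listed at 0 in all 6 columns. A member that passed because it was high in 1 line had to differ, so counts over the 24 genes describe them and support nothing.

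To compare the HOX codes of the lines, Input SW480 was set against Input DLD-1. Differences are given as log2((FPKM + 1)/(FPKM + 1)) and called at 2-fold or more on this scale, which understates the change of low genes, while folds are quotients of FPKM. Of the 24 genes, 10 were higher and 6 lower in SW480, against backgrounds of 8.14% and 13.8% of protein-coding genes. The median log2 difference was 0.63, against -0.06 over protein-coding genes. In the RIP table the direction went by cluster. There, 9 of 10 HOXA and 8 of 9 HOXB genes were above 0, and the 3 HOXC and 2 HOXD genes were all lower by 2-fold or more. With the acRIP-table Inputs this was less clear for HOXA, with 6 of 10 genes above 0 and 4 below. HOXB stayed at 8 of 9 above 0, and all 5 HOXC and HOXD genes were below 0, 4 of them by 2-fold or more. In a bulk library, fewer cells with a transcript and less of it per cell cannot be told apart.

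HOXA13 (ENSG00000106031, chr7:27194364-27200091), which patterns the hindgut, limb and genital tract, had the highest ratio of Input SW480 to Input DLD-1 in the RIP table. Its FPKM was 16.4 in Input SW480 and 2.19 in Input DLD-1, a 7.46-fold difference with a 95% interval of 6.29 to 8.91. The acRIP-table Inputs gave 9.7 and 1.49. RIP followed the other label, with 1.63 FPKM in RIP SW480 and 25 in RIP DLD-1, 15.3-fold higher in the latter (13.5 to 17.6). Thus HOXA13 was high in Input SW480 and RIP DLD-1 and low in Input DLD-1 and RIP SW480.

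HOXA5 and HOXA9 were also higher in Input SW480 and RIP DLD-1 than in Input DLD-1 and RIP SW480. For HOXA9, however, RIP SW480 exceeded Input DLD-1 by 2.24-fold (1.69 to 3.01). HOXA5, which restrains stem cell traits in the colon, was at 17.3 FPKM in Input SW480, 5.1 in Input DLD-1, 4.07 in RIP SW480 and 13.1 in RIP DLD-1. HOXA9, a regulator of blood progenitors, was at 14, 4.32, 9.67 and 32.4 FPKM in the same order of libraries. Input SW480 exceeded Input DLD-1 by 3.39-fold for HOXA5 (2.75 to 4.2) and by 3.25-fold for HOXA9 (2.43 to 4.4). HOXA6 was at 6.36 and 2.77 FPKM in the Inputs and at 2.59 and 7.19 in RIP SW480 and RIP DLD-1. HOXA10, needed in the uterus, was at 10.3, 4.9, 7.17 and 15.3 FPKM. HOXA6 and HOXA10 differed by 2.3-fold and 2.09-fold between the Inputs, but fell just short of the call on the scale with the added 1. In the acRIP table the Inputs read 9.97 and 0.791 FPKM for HOXA6. After scaling to the RIP table, this was a log2 difference of 2.83, above HOXA13 at 2.22. HOXA10 stood there at 7.08 and 8.1 FPKM, which turns its order. HOXA3, active in the pharyngeal region, was at 8.6 and 3.53 FPKM in the Inputs and at 4.45 and 5.49 in the RIP libraries, so that its RIP libraries were close.

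HOXA2 and HOXA11 behaved otherwise. HOXA2 was near 1 FPKM throughout, at 1.65 and 1.49 in the Inputs and 0.559 and 0.657 in the RIP libraries. Its Input fold of 1.11 had an interval of 0.713 to 1.73, so no difference was detectable at this depth. HOXA11 was at 4.59 and 3.84 FPKM in the Inputs, 1.2-fold apart with an interval of 0.935 to 1.53, and at 6.26 and 14.4 in the RIP libraries. In the acRIP table its Inputs read 10.2 and 12 FPKM, which turns the order.

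HOXA7 could not be placed, because its Input level depended on the table. The RIP-table Inputs gave 0.576 FPKM (17 reads) in SW480 and 0.33 FPKM (9 reads) in DLD-1, whereas the acRIP table gave 12.9 and 11 FPKM for the same samples. The acRIP-table values were 22.4 and 33.4 times the others. RIP SW480 and RIP DLD-1 had 8.81 and 10.2 FPKM. As log2 with 1 added, the tables differed by 3.14 and 3.18 for HOXA7, and no other of the 24 genes past the filter differed by more than HOXA11, at 1.43 in DLD-1. The antisense gene HOXA-AS3 overlaps HOXA7 and showed 2.91 FPKM in Input SW480 and 0 in Input DLD-1 in the RIP table, against 6.12 and 3.04 in the acRIP table. The part of this neighbour in the HOXA7 values was not tested, and any ratio over a HOXA7 Input is uncertain.

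In the HOXB cluster, HOXB3, HOXB6, HOXB7 and HOXB8 followed HOXB9. HOXB3 was at 42 FPKM in Input SW480, 13.9 in Input DLD-1, 10.2 in RIP SW480 and 32.9 in RIP DLD-1. HOXB8 was at 43.2, 13.2, 8.72 and 35.6 FPKM in these libraries. For both, Input SW480 and RIP DLD-1 were the high pair. HOXB6, the second highest HOX gene of RIP DLD-1, was at 46.4, 17.8, 18.1 and 63.1 FPKM, and HOXB7, which promotes growth of several tumour types, at 49.2, 19.6, 19 and 43.4 FPKM. The Input folds were 3.01 for HOXB3 (2.78 to 3.26), 2.6 for HOXB6 (2.34 to 2.89), 2.51 for HOXB7 (2.22 to 2.84) and 3.28 for HOXB8 (2.9 to 3.72). HOXB9 differed by 3.45-fold (3.29 to 3.62).

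HOXB5, which acts in gut innervation, was at 21.7 FPKM in Input SW480 and 9.73 in Input DLD-1, but at 7.56 and 8.87 in the RIP libraries, which lay near each other. HOXB4, used in blood stem cells, was at 8.41 and 7.02 FPKM in the Inputs and at 2.92 and 3.51 in the RIP libraries. Both RIP libraries thus held less HOXB4 than either Input. HOXB2 was at 3.46 and 3.56 FPKM in the Inputs, 4.17 in RIP SW480 and 0.94 in RIP DLD-1. Its Inputs differed by a fold of 0.973 with an interval of 0.7 to 1.35, and its RIP libraries by 4.43-fold (3.11 to 6.49). HOXB13, a gene of the distal colon and prostate that lies apart from the rest of its cluster, was at 2.68 and 1.94 FPKM in the Inputs and at 3.6 and 4.36 in the RIP libraries. In the acRIP table both HOXB13 Inputs read 1.44 FPKM.

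The HOXC and HOXD genes ran the other way. HOXD8 (ENSG00000175879) was at 0.357 FPKM (5 reads) in Input SW480 and 7.42 (96 reads) in Input DLD-1, and at 6.94 (197 reads) and 0.207 (5 reads) in RIP SW480 and RIP DLD-1. Input DLD-1 exceeded Input SW480 by 20.8-fold (8.61 to 65.5), and RIP SW480 exceeded RIP DLD-1 by 33.5-fold (14.1 to 104). The acRIP-table Inputs gave 0.0346 FPKM in SW480 and 3.16 in DLD-1. HOXD8 was therefore high in Input DLD-1 and RIP SW480 and nearly absent from both other libraries. HOXD9 was at 0.0732 FPKM, a single read, in Input SW480 and at 2.61 in Input DLD-1, with 3.32 in RIP SW480 and 0.637 in RIP DLD-1. The inverse Input fold of 35.7 spanned 5.98 to 1454, so its size is poorly known.

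HOXC10, which is used in the lumbar region, was at 1.2 FPKM in Input SW480, 6.81 in Input DLD-1, 6.21 in RIP SW480 and 1.11 in RIP DLD-1. HOXC9 was at 0.406, 3.42, 1.83 and 0.262 FPKM, and HOXC6 at 0.418, 4.58, 1.57 and 0.31 FPKM. Input DLD-1 was higher by 5.67-fold for HOXC10 (3.35 to 10.2), by 8.42-fold for HOXC9 (4.19 to 19.2) and by 10.9-fold for HOXC6 (6.74 to 18.9). For HOXC9 and HOXC6, RIP SW480 stayed below Input DLD-1. Below the filter, HOXC13 was at 0.459 FPKM in Input DLD-1 and 0.39 in RIP SW480 and listed at 0 in Input SW480 and RIP DLD-1. HOXD13 was at 0.529 in Input DLD-1, 0.557 in RIP SW480 and 0.0177 in RIP DLD-1, and listed at 0 in Input SW480. HOXA4 was at 0.548 and 1.61 FPKM in the Inputs and at 0.464 and 0.182 in the RIP libraries.

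Both Input tables were then compared over the 24 genes. The sign of the difference between lines was the same in 19 genes, and across genes Pearson's r was 0.906 and Spearman's rho 0.887. The 5 genes with opposite signs were HOXA2, HOXA10, HOXA11, HOXB2 and HOXB13. All 5 HOXC and HOXD genes kept their sign, although HOXD9 read 0 in SW480 and 0.494 FPKM in DLD-1 in the acRIP table.

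To see the HOX code in the RIP libraries, RIP SW480 was set against RIP DLD-1. Of the 24 genes, 5 were higher and 10 lower in RIP SW480, against 12.2% and 6.82% of protein-coding genes. The higher genes were HOXB2, HOXC9, HOXC10, HOXD8 and HOXD9, and the lower ones HOXA5, HOXA6, HOXA9, HOXA11, HOXA13, HOXB3, HOXB6, HOXB7, HOXB8 and HOXB9. The median was -0.24, against 0.08 over protein-coding genes. In all 24 genes the sign was opposite to that of the Inputs, as it was in 79.6% of the 11605 protein-coding genes. For HOXA2, HOXA7, HOXA11 and HOXB2, however, the interval of the Input fold lay on both sides of no difference. The sign of these Input differences is therefore not settled, nor is that of the RIP difference of HOXA2. Across the 24 genes, the log2 differences of the Inputs and of the RIP libraries had a Pearson's r of -0.924 and a Spearman's rho of -0.938, against -0.885 and -0.81 over protein-coding genes. Genes are not independent replicates, and each point rests on the same 4 libraries. With the acRIP-table Inputs, scaled by 1.46 in SW480 and 1.51 in DLD-1 to the median of the RIP table, 19 of 24 genes had opposite signs, including all 5 HOXC and HOXD genes.

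**Figure D2:**
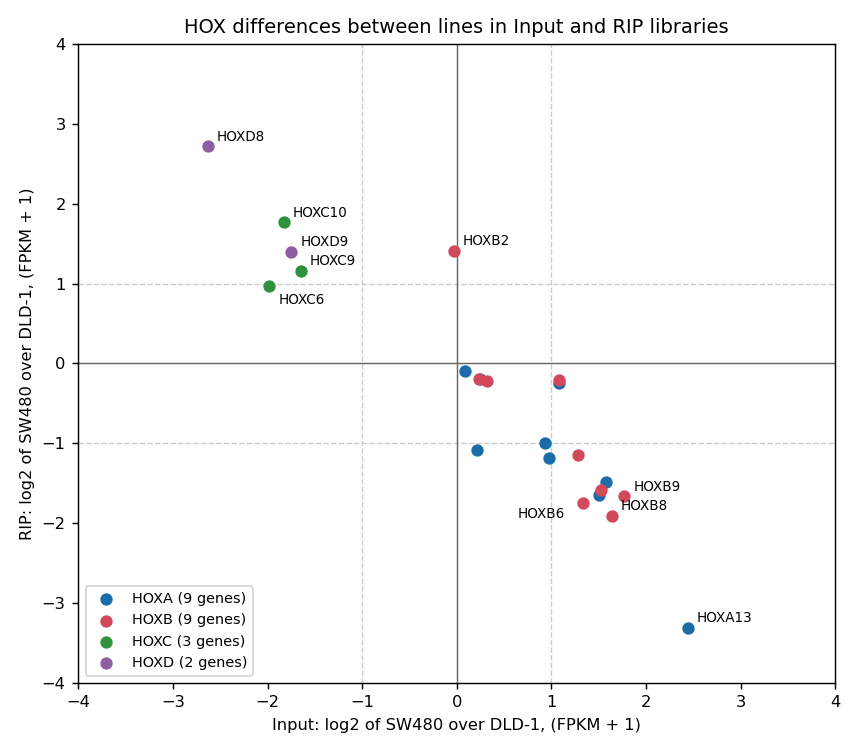
Log2 ratio of SW480 to DLD-1 in the Input libraries (x axis) and in the RIP libraries (y axis) for the HOX genes past the filter that are reported by name, coloured by cluster, with 1 added to each FPKM and dashed lines at 2-fold. All points lie in the quadrants of opposite sign, from HOXD8 at -2.63 and 2.72 to HOXA13 at 2.44 and -3.31.

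Recovery with NAT10 was read as the ratio of RIP to Input of the same label. In SW480, 6 of 24 HOX genes were higher in RIP and 10 lower, against 22.0% and 9.53% of protein-coding genes, with a median of -0.63 against 0.25. The higher genes included HOXA7, HOXC9, HOXC10, HOXD8 and HOXD9. HOXA5, HOXA6, HOXA13 and HOXB3 to HOXB9 were the lower ones, led by HOXA13 at -2.72 and HOXB8 at -2.18 on the log2 scale. In DLD-1, 12 genes were higher and 6 lower, against 18.0% and 16.3%, with a median of 0.99 against 0.04. The 12 were HOXA5, HOXA6, HOXA7, HOXA9, HOXA10, HOXA11, HOXA13, HOXB3 and HOXB6 to HOXB9, and the 6 were HOXB2, HOXC6, HOXC9, HOXC10, HOXD8 and HOXD9. In 12 genes, or 50% of the 24, the labelled ratio was 2-fold or more upward in one line and downward in the other, as in 11.8% of protein-coding genes. With the acRIP-table Inputs it was 8 genes, or 33.3%, since HOXB6, HOXB7, HOXC9 and HOXD9 no longer passed 2-fold in both lines.

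Set over the opposite Input, most of these ratios were small. RIP SW480 over Input DLD-1 had 2 genes higher (HOXA7 and HOXA9) and 2 lower (HOXB4 and HOXC6), against 10.9% and 3.58% of protein-coding genes, with a median of -0.06 against 0.12. RIP DLD-1 over Input SW480 had 4 genes higher (among them HOXA7, HOXA9 and HOXA11) and 3 lower (HOXB2, HOXB4 and HOXB5), against 10.7% and 3.86%, with a median of -0.09 against 0.10. No HOX gene was 2-fold or more upward in one of these pairings and downward in the other, but neither were nearly any protein-coding genes (1 of 11605, or 0.00862%), so this count says nothing particular of HOX genes. HOXB9, the gene with the most reads, showed this best, since RIP SW480 was 1.04-fold of Input DLD-1 (0.986 to 1.09) and RIP DLD-1 0.958-fold of Input SW480 (0.932 to 0.985). Over the Inputs of the same label its folds were 0.301 and 3.31.

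A few genes were called in the same direction in both pairings with the other label. HOXA9 was higher in RIP by 2.24-fold (1.69 to 3.01) over Input DLD-1 and by 2.31-fold (1.98 to 2.7) over Input SW480. HOXB4 was lower, at a fold of 0.416 (0.357 to 0.485) and 0.417 (0.361 to 0.481). With the acRIP-table Inputs HOXB4 lost both calls, at -0.90 and -0.97 on the log2 scale, and HOXA9 lost that over Input DLD-1, at 0.89. HOXB4 was also lower in both lines over the Input of the same label, at 0.347 and 0.5, and HOXA2 was below 1 in all 4 ratios, between 0.339 and 0.442. HOXA7 was called higher in all 4 ratios, at 15.3-fold to 30.9-fold, but its ratios turn with the acRIP-table Inputs, to -1.02 and -0.66 over the same label and to -0.85 and -0.82 over the other on the log2 scale. HOXB4 (chr17:48575507-48578350) lies within the RefSeq span of HOXB3 (chr17:48548870-48590241), and reads of both cannot be told apart where their exons overlap.

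**Figure D3:**
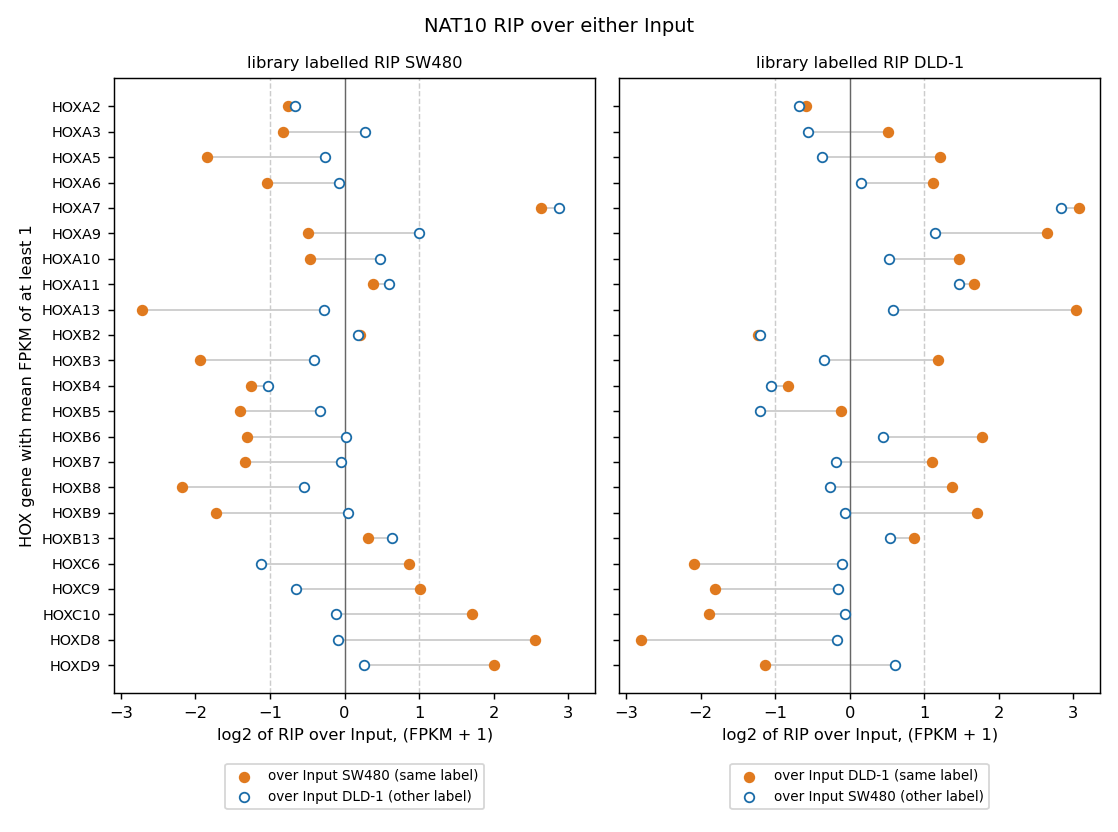
Log2 ratio of RIP to Input (x axis, 1 added to each FPKM) for the HOX genes past the filter that are reported by name (rows), in the library labelled RIP SW480 (left) and RIP DLD-1 (right). Filled points are over the Input of the same label and open points over that of the other label, which lie nearer to 0 for most genes, as for HOXA13 at -2.72 and -0.28 on the left.

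By the mean absolute difference of log2(FPKM + 1) over the 24 genes, RIP SW480 lay 1.352 from Input SW480 and 0.515 from Input DLD-1. RIP DLD-1 lay 0.658 from Input SW480 and 1.469 from Input DLD-1. Each RIP library was thus nearer to the Input of the other label, and over protein-coding genes these distances were 0.863, 0.556, 0.547 and 0.912. By gene, 18 of 24 HOX genes of RIP SW480 were nearer to Input DLD-1 (62.9% of protein-coding genes), and 19 of 24 of RIP DLD-1 were nearer to Input SW480 (65.5%). The 6 exceptions in RIP SW480 were HOXA7, HOXA9, HOXA10, HOXA11, HOXB13 and HOXC6, and the 5 in RIP DLD-1 included HOXA2, HOXA3, HOXB4 and HOXB5.

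The noncoding RNA genes within the clusters showed whether the pattern extended beyond the coding members. Of 33 such genes, 14 passed the same filter. Of these, 6 were higher and 3 lower in Input SW480, against 8.14% and 13.8% of protein-coding genes, with a median of 0.74 against -0.06. HOTTIP, transcribed from the end of the HOXA cluster beside HOXA13, was at 11.4 FPKM in Input SW480 and 0.288 in Input DLD-1, and at 0.262 in RIP SW480 and 10.1 in RIP DLD-1. HAGLR, an antisense RNA of the HOXD cluster, was at 0.226, 9.52, 7.56 and 0.431 FPKM, and its neighbour HAGLROS was at 3.44 in Input DLD-1 and 3.04 in RIP SW480 and listed at 0 in the other RIP-table libraries. HOTTIP was thus high in Input SW480 and RIP DLD-1, as HOXA13 was. HAGLR and HAGLROS were high in Input DLD-1 and RIP SW480, as HOXD8 was. HOTAIR, the antisense RNA of the HOXC cluster known to bind Polycomb proteins, was at 0.65 FPKM in Input SW480, 2.29 in Input DLD-1 and 2.65 in RIP SW480, and listed at 0 in RIP DLD-1. Over the 14 genes, the Input and RIP differences had opposite signs in 9 and the same sign in 4, against opposite signs in 79.6% of protein-coding genes. In 5 they were opposite by 2-fold or more each way, a count for which no share over protein-coding genes was computed. The 4 of like sign were HOTAIRM1, HOXA-AS2, HOXA10-AS and HOXB-AS1. HOXA10-AS was at 1.3 FPKM in Input SW480, 3.83 in Input DLD-1, 3.78 in RIP SW480 and 9.75 in RIP DLD-1, and HOXB-AS1 at 5.01, 4.14, 1.26 and 0.345 FPKM. HOXB-AS2, at 38 and 8.33 FPKM in the Inputs, was listed at 0 in both RIP libraries, and HOXB-AS4, at 23.6 and 7.33 FPKM, read 0 in RIP SW480 and 1.68 in RIP DLD-1.

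The clusters also hold microRNA genes that target HOX transcripts. MIR196A1, beside HOXB9, was the only one past the filter, at 25.4 FPKM (13 reads) in Input SW480, listed at 0 in Input DLD-1, and at 7.71 (8 reads) in RIP SW480 and 30.6 (27 reads) in RIP DLD-1. These reads come from the short hairpin gene and do not measure the mature microRNA. MIR10A, MIR10B, MIR196A2, MIR196B and MIR615 were listed at 0 in every library. The mature miR-196 forms are shown because their genes lie in 3 of the clusters and share 1 seed, bases 2 to 8, which is in capitals.
hsa-miR-196a-5p, from MIR196A1 (chr17:48632532-48632553, minus strand) and MIR196A2 (chr12:53991762-53991783, plus strand): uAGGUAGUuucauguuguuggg
hsa-miR-196b-5p, from MIR196B (chr7:27169528-27169549, minus strand): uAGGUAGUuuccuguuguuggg

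Of the ParaHox and EVX genes, homeobox relatives of the HOX genes, 3 of 8 passed the filter. Of these, 2 were higher and none lower in Input SW480, against 8.14% and 13.8% of protein-coding genes, with a median of 1.66. CDX2, a master gene of intestinal identity that activates HOX genes, was at 33.4 FPKM in Input SW480, 7 in Input DLD-1, 4.31 in RIP SW480 and 28.3 in RIP DLD-1. EVX1, the neighbour of HOXA13, was at 2.15 FPKM in Input SW480 and 3.98 in RIP DLD-1, listed at 0 in Input DLD-1 and at 0.0343 in RIP SW480. Both were higher in Input SW480 and RIP DLD-1 than in the other RIP-table libraries, as HOXA13 was. Among 9 TALE-class genes, whose products bind DNA together with HOX proteins, 6 passed the filter. Of these, 1 was higher and 2 lower in Input SW480, against the same 8.14% and 13.8%, with a median of -0.58. MEIS3 was at 0.0623 FPKM in Input SW480, 17.8 in Input DLD-1, 8.5 in RIP SW480 and 0.145 in RIP DLD-1, and PBX3 at 0.306, 6.51, 3.34 and 0.219 FPKM. These were high in Input DLD-1 and RIP SW480, as HOXD8 was. PKNOX1, at 9.21, 3.36, 3.71 and 11.6 FPKM, was higher in Input SW480 and RIP DLD-1, as HOXB9 was.

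For ac4C, the authors' peak lists of each acRIP library and of the pooled libraries were searched for HOX genes. In SW480, 5 of 39 genes had a peak (among them HOXB7, HOXC9, HOXC13 and HOXD9), and in DLD-1 7 had one (HOXA4, HOXA7, HOXA10, HOXB4, HOXB7, HOXC13 and HOXD9). The pooled list held 10 peaks in 9 genes, which added HOXD13. Among the 24 members past the filter, 4 carried an SW480 peak (16.7%), 5 a DLD-1 peak (20.8%) and 6 a pooled peak (25%). The backgrounds were 47.7%, 52.6% and 59.5% of protein-coding genes past the filter. At higher Input levels the share of HOX genes was below that of other genes, since above 20 FPKM in Input SW480 1 of 6 HOX genes had a peak, against 72.2% of protein-coding genes, and from 5 to 20 FPKM 0 of 7, against 50.5%. In DLD-1, 2 of 9 HOX genes from 5 to 20 FPKM had one, against 56.3%, and 3 of 14 from 1 to 5 FPKM, against 27.6%. Above 20 FPKM in DLD-1 it was 0 of 1, against 74.2%, and from 1 to 5 FPKM in SW480 1 of 6, against 28.3%. Below 1 FPKM it was 2 of 9 HOX genes in SW480 against 12.8% and 2 of 8 in DLD-1 against 10%. Too few genes had a peak there to order the shares. All these levels are those of the RIP-table Inputs. In DLD-1, 1 of the 2 genes was HOXA7, at 0.33 FPKM in the RIP table but at 11 in the acRIP table. Among genes listed at 0 in Input SW480, 1 of 11 HOX genes had a peak, against 5.25%, and among those at 0 in Input DLD-1 0 of 7, against 5.3%. HOXB9 had no peak in any list, nor did HOXB3, HOXB6 or HOXB8.

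Most HOX peaks lay in the 3' untranslated region (UTR), namely 4 of 5 in SW480 and 7 of 7 in DLD-1, against 53% and 41.5% of all peaks. The pattern that the header of the deposited peak lists spells CXXCXXCXXCXX, with its sites counted there for each peak, was present in 4 of 5 and 3 of 7 HOX peaks, against 56.2% and 55.1% of all peaks. The fold of a peak is the authors' enrichment in acRIP relative to Input, with medians of 19.5 in SW480 and 14.6 in DLD-1 over all peaks.

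HOXD9 carried the HOX peak with the highest fold in the lists, at 54.3 in the pooled list and 52 in SW480 (chr2:176124611-176124907, plus strand, authors' p-value 5.0e-15), in the last part of the 3' UTR. In DLD-1 a peak of fold 7.87 lay within it (chr2:176124729-176124878, authors' p-value 0.017). In the RIP table HOXD9 was at 0.0732 FPKM, a single read, in Input SW480 and at 2.61 in Input DLD-1. The acRIP table listed it at 0 in SW480 and at 0.494 in DLD-1. The higher fold thus came from the line with the lower Input in both tables. HOXC13 had peaks of fold 31.2 in SW480 (chr12:53945916-53946125) and 35.4 in DLD-1 (chr12:53946125-53946365), which share 1 base in the 3' UTR, and the acRIP table listed its Input at 0 in both lines. HOXC9 had a peak of fold 19.8 in SW480 alone, where its Input was lower than in DLD-1. A fold over so few Input reads is imprecise, and its error cannot be given because the depth of the acRIP libraries is unknown.

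HOXB7 was the only highly expressed HOX gene with a peak. Its 3' UTR peaks lay apart, at chr17:48607317-48607556 with fold 12.8 in SW480 (authors' p-value 4.0e-17) and at chr17:48607676-48607856 with fold 17.7 in DLD-1 (authors' p-value 1.1e-09). In the pooled list both stood side by side, with folds of 7.61 and 9.66. In DLD-1, HOXA10 had a peak of fold 21.2, HOXA7 of 11, HOXA4 of 10.2 and HOXB4 of 6.29. The HOXA10 and HOXA7 peaks overlapped peaks listed on the other strand for HOXA10-AS and HOXA-AS3, so the strand of origin cannot be told apart there. HOTAIRM1, a noncoding RNA of the HOXA cluster, had peaks in SW480 with fold 29.1, and HOXA11-AS had 1 with fold 8.33.

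**Figure D4:**
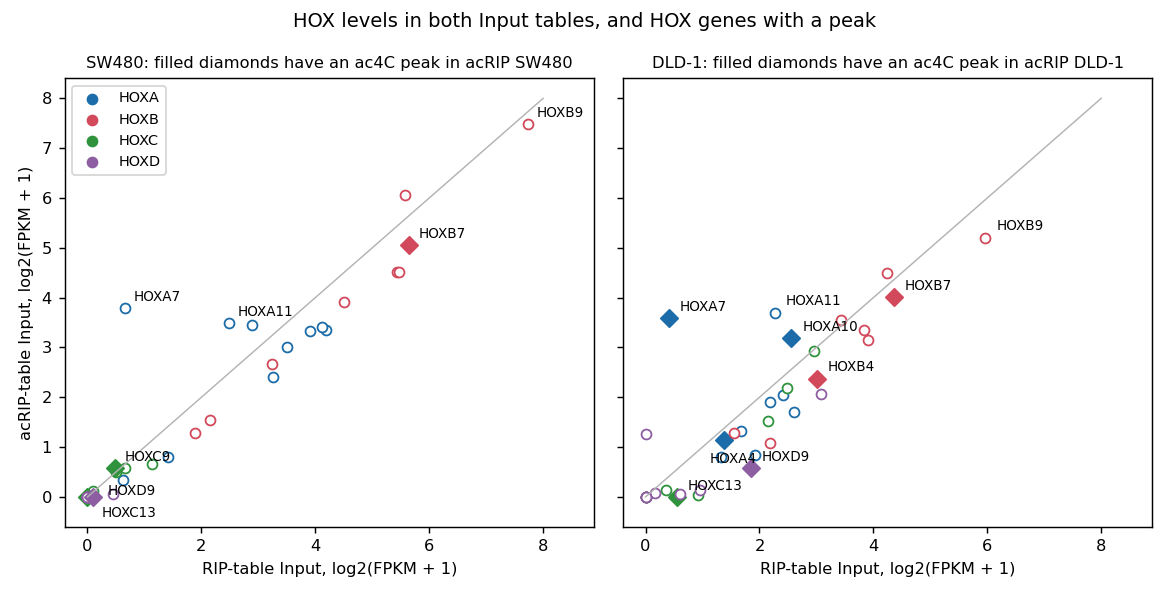
Input level of each HOX gene reported by name as log2(FPKM + 1) in the RIP table (x axis) and the acRIP table (y axis) in SW480 (left) and DLD-1 (right), coloured by cluster, with filled diamonds for genes with an ac4C peak in that line and a grey line of equality. HOXB9 is the highest point without a peak, and HOXA7 lies far above the line, at 0.576 and 12.9 FPKM in SW480.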

How the data were processed

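Input, NAT10 RIP and ac4C acRIP libraries of SW480 and DLD-1 were grouped by their titles, 1 library per group. The authors deposited FPKM for both RIP and both Input libraries, and Input values in a second table, read as FPKM although its unit is not named. Processing notes name cutadapt 2.5 and HISAT2 2.1.0. The counting tool and strand setting are not given in the sources used here. Deposited columns holding the authors' ratio of RIP to Input and its mean were not used. The authors' 3 peak lists (per library and pooled) give a p-value, a log10 FDR score and a fold ratio of acRIP to Input. The peak caller is not given. Starts, counted from 0, were moved by 1 base.

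Differences were log2((FPKM + 1)/(FPKM + 1)), called at 2-fold or more, over genes with a mean of at least 1 FPKM in the 4 RIP-table libraries. There was no test. Whole reads were solved from FPKM steps (tolerance 0.005 reads) for 23509 of 23515 genes above 0 in at least 2 columns, as the smallest numbers that give the values. Totals are therefore lower limits and the exact 95% intervals upper limits, which cover counting error only, since PCR copies are not independent molecules. Scripts (Python 3.11.15, pandas 2.3.3, numpy 2.4.6, scipy 1.17.1) were tested on simulated data. Spans overlap another HOX gene in 11 members, 6 of them past the filter. Named were members past the filter or with a peak, the rest by name and range. A single member is included in the counts, medians and sums but is not reported by name here. Members and lists were chosen with earlier results of these data known. Alternatives were pseudocount 0.1, no filter, median centring, the other Input table, an Input filter, stricter peaks and stricter overlap. Sequences are from RefSeq.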

Additional observations from a re-analysis of the deposited data

Results flagged for a closer look

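In 12 HOX genes the log2 ratio of RIP to Input of the same label was 2-fold or more in opposite directions in the lines. With the acRIP-table Inputs this held for 8, without HOXB6, HOXB7, HOXC9 and HOXD9, whose smaller ratio was then 0.93, 0.88, 0.72 and -0.10. With 1 library per group, the difference was not tested. The values are the ratio labelled SW480 minus that labelled DLD-1. In the HOXA cluster they were -5.75 for HOXA13 (-2.72 and 3.03), -3.06 for HOXA5 (-1.85 and 1.21) and -2.15 for HOXA6 (-1.04 and 1.12). In the HOXB cluster they were -3.55 for HOXB8 (-2.18 and 1.37), -3.43 for HOXB9 (-1.72 and 1.71), -3.12 for HOXB3 (-1.94 and 1.18), -3.08 for HOXB6 (-1.31 and 1.77) and -2.44 for HOXB7 (-1.33 and 1.11). The HOXC and HOXD genes had positive values, at 3.60 for HOXC10 (1.71 and -1.89), 2.82 for HOXC9 (1.01 and -1.81), 5.35 for HOXD8 (2.55 and -2.80) and 3.15 for HOXD9 (2.01 and -1.14). With the Inputs exchanged, so that each RIP library was set over the opposite label, none of the 24 genes past the filter was 2-fold or more in opposite directions, against 1 of 11605 protein-coding genes (0.00862%).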

How the results depend on the processing

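No paired analysis was possible because each group held 1 library, which also left no replicate to leave out. With the acRIP-table Inputs, the counts of HOX genes became 3 higher for RIP SW480 over Input SW480, 7 higher for RIP DLD-1 over Input DLD-1, 1 higher for RIP SW480 over Input DLD-1, and 1 higher and 1 lower for RIP DLD-1 over Input SW480. HOXA7 reversed in all 4 ratios (-1.02, -0.66, -0.85 and -0.82), and HOXA11 reversed for RIP DLD-1 over Input DLD-1 (-0.32) and over Input SW480 (-0.04). With an Input of at least 1 FPKM in both lines, which leaves 19 genes, 2 were higher for RIP SW480 over Input SW480, 2 lower for RIP DLD-1 over Input DLD-1, and 1 higher and 1 lower for RIP SW480 over Input DLD-1. Centring left 1 higher in the latter. Without the members that overlap another HOX gene (added after seeing the data, 18 genes), 6 were lower for RIP SW480 over Input SW480 and 0 for RIP SW480 over Input DLD-1. The distance of RIP SW480 to Input SW480 minus that to Input DLD-1, 0.84, was 1.10 with a pseudocount of 0.1, 0.69 with the acRIP-table Inputs and 0.56 without the filter, and that of RIP DLD-1, -0.81, was -1.01, -0.71 and -0.63, so neither changed sign. Peaks at or under the median p-value of their list left 2 genes in SW480, 2 in DLD-1, 3 in the pooled list, 3 in either line, 1 in both and 0 overlapping pairs. Overlap of 50% of each peak left 1 of 2 overlapping pairs. An FDR below 0.05 changed no count of genes with a peak. The other 60 summary values kept their direction and stayed within 1.5 times, and of the single-gene ratios 276 stayed near their value and 177 moved without changing the sign of a called ratio. Except where stated, the cause was not tested. Depth limits HOXC and HOXD most, with 5 HOXD8 reads in Input SW480.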

Other observations

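The Polycomb and Trithorax regulators, which keep HOX clusters silent or active, differed little between the lines. All 26 listed genes passed the filter. With 1 added to each FPKM, none was 2-fold or more higher or lower between the Inputs or between the RIP libraries. Over protein-coding genes, 8.14% were higher and 13.8% lower in Input SW480, and 12.2% and 6.82% in RIP SW480. The medians of the 26 genes were 0.08 and 0.05 on the log2 scale. As quotients of FPKM, RING1 (9.02 against 18.6) and RNF2 (1.9 against 4.09) were more than 2-fold lower in Input SW480. EZH2, the methyltransferase of Polycomb repressive complex 2, was at 12.2 FPKM in Input SW480, 13.8 in Input DLD-1, 13.8 in RIP SW480 and 7.5 in RIP DLD-1, and KMT2A, which maintains HOX activity, was at 23.5, 27.1, 24.9 and 16.3 FPKM. SUZ12 was higher in RIP over all 4 pairings, between 1.33 and 1.53 on the log2 scale, at 31.4 and 33.3 FPKM in the RIP libraries against 11.9 and 10.9 in the Inputs. Of the 26 genes, 16 had an ac4C peak in SW480 (61.5%) and 17 in DLD-1 (65.4%), against 47.7% and 52.6% of protein-coding genes past the filter. Most of the 26 were at 5 FPKM or more in the Inputs, where peaks were more frequent. From 5 to 20 FPKM, 50.5% of protein-coding genes had one in SW480 and 56.3% in DLD-1, and above 20 FPKM 72.2% and 74.2%.

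Of the coding genes next to the clusters, 8 passed the filter. None was higher and 2 were lower in Input SW480, against 8.14% and 13.8% of protein-coding genes. The 2 were CALCOCO1 beside HOXC (5.48 against 15.1 FPKM) and SKAP1 beside HOXB (13.8 against 31.8 FPKM). SKAP1 thus ran against HOXB3 and HOXB5 to HOXB9, which were called higher in Input SW480. It did not run against every HOXB gene, since HOXB2 was at 3.46 and 3.56 FPKM in the Inputs and HOXB1 was listed at 0. MTX2 beside HOXD was at 15.9 and 24.2 FPKM in the Inputs and at 25.1 and 20 in the RIP libraries.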
